A study of Homo sapiens with 3 samples.

Results

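The HOXA cluster and its partner genes form the transcriptional core of leukemias with a rearranged KMT2A (MLL) gene. The genes described here are 10 of the 25702 genes counted in each library: the homeobox genes HOXA5, HOXA6, HOXA7, HOXA9 and HOXA10, the homeobox co-factor genes MEIS1 and PBX3, the transcription factor genes MEF2C and ZEB2, and JMJD1C, a gene of the histone demethylase family. They were listed by name as known KMT2A-fusion targets and matched by Entrez identifier, and all 10 were found. The rule used no measured value, but the list was chosen with earlier results of these data known. Of these, 9 reached 10 counts in at least 1 library and were compared between libraries among the 12879 genes that did so. HOXA6 did not.

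RNA was taken from Molm13 cells, a human acute myeloid leukemia line grown without cell cycle synchronization and labelled as derived from peripheral blood. All 3 groups share an internal tandem duplication in FLT3, which the study states, and, from general knowledge of the line, a fusion of KMT2A with MLLT3 (AF9). The cells were treated for 6 h with the vehicle DMSO, with 50 nM pyrvinium or with 100 nM pyrvinium, an anthelmintic drug, and 1 library was sequenced for each condition, so that no difference below has a replicate check. The design asks how the transcriptome responds to the drug at each dose. Counts per library summed to between 22677038 and 24075123, and mitochondrially encoded genes took 5.59% of the DMSO library, 4.68% of the 50 nM library and 5.11% of the 100 nM library. All 8 myeloid markers checked, among them CD33, SPI1 and CEBPA, had at least 10 counts in every library, with a summed level of 1122 to 1176 TPM (a level per exon length, scaled to the same total in each library). Of 18 markers of T, B, erythroid, megakaryocytic and epithelial cells, 8 had no count in any library, among them CD3E, PF4 and EPCAM, and the highest count was 26, of CD3D in the DMSO library. The hemoglobin gene HBB had 0 counts with DMSO, 16 at 50 nM and 0 at 100 nM, so that the 50 nM library alone held reads of this erythroid marker, and their part in the results was not tested.

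KMT2A is a histone methyltransferase that keeps HOX genes active during development. Its leukemic fusions join the DNA-binding part of the protein to partners of the elongation machinery, which recruit DOT1L and hold the HOXA cluster and MEIS1 in an active state through the adaptors menin and LEDGF. HOXA9 binds DNA together with the TALE homeodomain proteins MEIS and PBX, and in normal blood formation HOXA9 and MEIS1 are high in stem and progenitor cells and are turned off as cells mature. A count per gene cannot tell the fusion transcript from the normal KMT2A and MLLT3 transcripts.

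The promoters of the genes that differed most clearly between libraries are printed below, because the CXXC domain that the fusion protein keeps binds unmethylated CG dinucleotides. Each is the window of 300 bases from 250 before to 50 after the RefSeq start (table build GRCh38.p14), found as an exact match in GRCh37, the build of the counts (hg19), with each CG in capitals. HOXA9 and HOXA10 had fewer reads after pyrvinium, PBX3 and ZEB2 had more. Neither binding of the fusion protein nor DNA methylation was measured, so that a link of CG content to these differences was not tested.
HOXA9, chr7:27205107-27205406, minus strand: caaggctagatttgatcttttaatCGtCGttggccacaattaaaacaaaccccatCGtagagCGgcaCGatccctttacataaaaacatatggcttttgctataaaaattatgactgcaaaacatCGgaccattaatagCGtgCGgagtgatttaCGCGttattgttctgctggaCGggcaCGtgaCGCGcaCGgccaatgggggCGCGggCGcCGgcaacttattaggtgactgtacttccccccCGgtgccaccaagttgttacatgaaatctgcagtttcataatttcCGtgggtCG
HOXA10, chr7:27219431-27219730, minus strand: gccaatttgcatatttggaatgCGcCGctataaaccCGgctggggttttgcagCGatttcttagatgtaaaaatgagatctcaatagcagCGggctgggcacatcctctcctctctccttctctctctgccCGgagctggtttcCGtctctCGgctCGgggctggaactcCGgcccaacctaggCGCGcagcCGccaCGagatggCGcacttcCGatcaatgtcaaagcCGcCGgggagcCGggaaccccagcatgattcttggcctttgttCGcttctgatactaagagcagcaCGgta
PBX3, chr9:128510212-128510511, plus strand: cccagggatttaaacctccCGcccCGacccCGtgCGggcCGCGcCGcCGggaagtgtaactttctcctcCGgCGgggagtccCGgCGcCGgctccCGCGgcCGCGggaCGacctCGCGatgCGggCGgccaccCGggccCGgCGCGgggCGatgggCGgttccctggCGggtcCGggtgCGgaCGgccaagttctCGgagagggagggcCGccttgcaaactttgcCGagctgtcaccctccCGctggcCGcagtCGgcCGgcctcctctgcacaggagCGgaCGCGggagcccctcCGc
ZEB2, chr2:145277637-145277936, minus strand: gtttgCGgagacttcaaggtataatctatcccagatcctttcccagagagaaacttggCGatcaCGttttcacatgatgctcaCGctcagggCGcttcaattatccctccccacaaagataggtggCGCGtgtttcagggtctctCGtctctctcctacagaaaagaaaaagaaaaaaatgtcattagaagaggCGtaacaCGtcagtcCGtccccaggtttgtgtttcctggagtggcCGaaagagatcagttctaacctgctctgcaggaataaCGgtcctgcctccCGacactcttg

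Of the 10 genes, 9 had a promoter entry and HOXA5 did not. Their windows held from 6 CG dinucleotides in JMJD1C to 43 in PBX3, against a median of 14 over 27305 promoters, and 8 of the 9 were at or above that median. The HOXA9 window held 22, that of HOXA10 held 21, and that of ZEB2 held 14. The core MEIS motif TGACAG, searched on both strands, occurred in 1 of the 9 windows, that of PBX3, and in 15.9% of all promoters. The joint PBX and HOX motif TGATTNAT, also searched on both strands, occurred in 0 of the 9 and in 2.94% of all promoters. The start of the counted gene lay inside 3 of the 9 windows, those of HOXA6, HOXA7 and HOXA9. It lay 272 bases from the RefSeq start for ZEB2, 275 for MEIS1, 396 for HOXA10, 845 for PBX3, 20921 for MEF2C and 196719 for JMJD1C, so that these windows, among them 3 of the 4 printed, do not hold the start used in the counts.

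In vehicle-treated cells most reads counted in the HOXA cluster came from its 5′ part, and the other HOX clusters gave almost no reads. Levels of different genes are given in TPM, computed from the counts and the exon length of each gene. HOXA9 (Entrez 3205, chromosome 7 of hg19 from 27202057 to 27205149, minus strand, 2 exons, both partly coding) stood at 74.1 TPM in the DMSO library, with a counting interval from 70.7 to 77.5, above 82.2% of the 12445 genes with at least 10 counts there. HOXA10 (Entrez 3206, chromosome 7 from 27210210 to 27219876) stood at 20.2 and HOXA11, a neighbour that is not in the list, at 11.5. HOXA9, HOXA10 and HOXA11 together made 91.1% of the summed level of the 11 HOXA genes, and HOXA9 alone 63.8%. HOXA7 (Entrez 3204) stood at 4.45, HOXA5 (Entrez 3202) at 1.76 and HOXA6 (Entrez 3203) at 0.583 TPM, the last from 6 counts. Exons on the other strand cover 74.7% of the counted length of HOXA7 and 24.2% of that of HOXA6. Reads there may have been left out, so that both levels, and with them the shares of the summed level, are uncertain.

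Other cluster genes were low. HOXA13 had 53, 34 and 30 counts in the DMSO, 50 nM and 100 nM libraries, HOXA3 14, 16 and 28, HOXA4 10, 3 and 7, and HOXA2 0, 1 and 1. Over the 28 genes of the HOXB, HOXC and HOXD clusters, 0 reads were counted with DMSO and 1 with each dose, on HOXC8 at 50 nM and on HOXC6 at 100 nM. A count of 0 allows up to 3 counts, or 1.3e-05% of the DMSO library. Among the non-coding genes of the HOXA cluster, HOTAIRM1, at the 3′ end, had 102, 97 and 105 counts, HOXA11-AS had 36, 35 and 45, MIR196B had 1 in each library, and HOTTIP, at the 5′ end, had 3, 3 and 2. MIR196B was counted on 84 bases in mRNA libraries, so that its count says nothing about the mature microRNA.

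**Figure D1:**
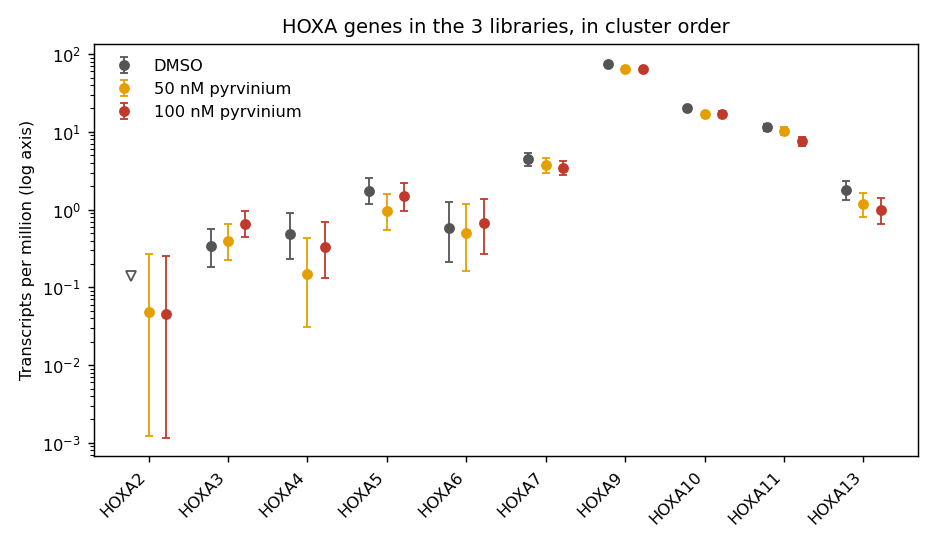
Level of 10 HOXA genes in TPM (log axis), in the order of the genes along the cluster, with 1 point per library and bars for the 95% Poisson interval of the count. HOXA9 was the highest gene in all 3 libraries, at 74.1, 64.3 and 63.9, and the open triangle marks the level of 3 counts for HOXA2, which had 0 counts with DMSO.

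The genes of the list outside the cluster were mostly as high as HOXA9 or close to it. MEF2C, a MADS-box transcription factor linked to KMT2A-rearranged leukemia, stood at 108.9 TPM in the DMSO library, and PBX3, the partner that stabilizes HOXA9 and MEIS1 on DNA, stood at 89.6. JMJD1C stood at 64.7, ZEB2, a zinc finger repressor, at 44.1 and MEIS1, the TALE partner of HOXA9, at 35.5. With DMSO the order was MEF2C, PBX3, HOXA9, JMJD1C, ZEB2, MEIS1, HOXA10, HOXA7, HOXA5, HOXA6, and the counting intervals of neighbours overlapped only for HOXA5 and HOXA6. The places of HOXA7 and HOXA6 are uncertain because of their overlapped exons. After 50 nM, JMJD1C (65.6) and HOXA9 (64.3) were next to each other with overlapping intervals. After 100 nM this held again, at 65.0 and 63.9, and PBX3 (117.0) and MEF2C (115.5) overlapped at the top of the order.

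**Figure D2:**
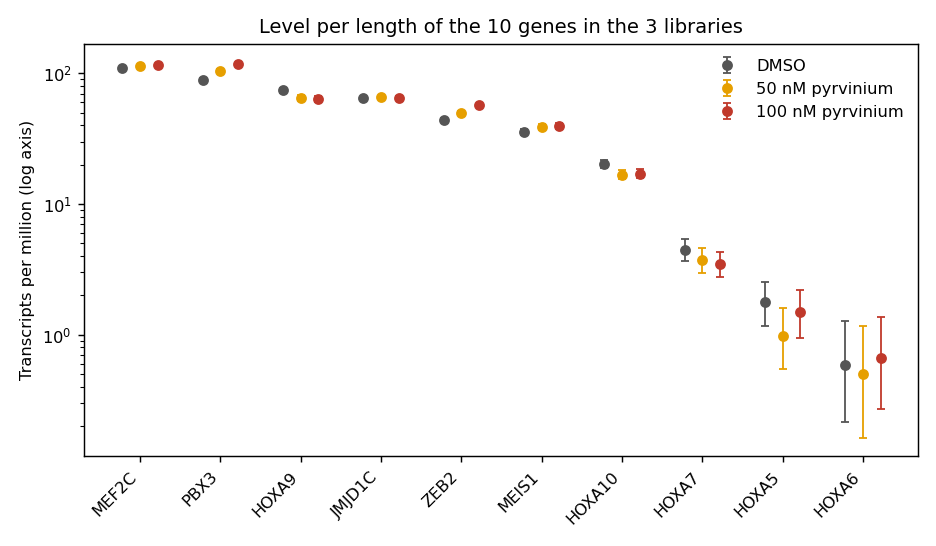
Level of the 10 genes in TPM (log axis), ordered by their level with DMSO, with 1 point per library and bars for the 95% Poisson interval of the count. The range runs from 0.583 for HOXA6 to 108.9 for MEF2C with DMSO, and PBX3 reached 117.0 at 100 nM.

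HOXA9 and HOXA10 were lower in both pyrvinium libraries than with DMSO, and MEIS1, PBX3, MEF2C and ZEB2 were higher, all by less than 2-fold. In bulk RNA, fewer cells that express a gene and less of its RNA per cell cannot be told apart. For each pair of libraries a log2 fold change was computed from counts scaled by library, with a 95% interval for the counting error alone. Such an interval compares the libraries and not the conditions, and both doses were set against the same DMSO library. At 100 nM, 2 of the 9 genes tested, HOXA9 and HOXA10, had an interval below 0, where 25.3% of all 12879 genes did, and 4, MEIS1, PBX3, MEF2C and ZEB2, had an interval above 0, where 24.0% of all genes did. At 50 nM the same counts, 2 below and 4 above, stood beside 18.5% and 18.6% of all genes. A change of at least 2-fold was reached by 0 of the 9 genes at either dose, against 3.84% of all genes at 100 nM and 2.73% at 50 nM. Most of these changes lay in genes with few reads. Only 69 of the 9979 genes averaging 100 counts or more reached 2-fold at 100 nM, and 20 at 50 nM. All of the 9 but HOXA5 and HOXA7 averaged that many, so that their lack of 2-fold changes does not set them apart. The median log2 fold change of the 9 genes at 100 nM was -0.02, beside -0.002 over all genes tested.

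For HOXA9, 1817 reads were counted with DMSO, 1533 with 50 nM and 1603 with 100 nM pyrvinium. Both pyrvinium libraries were lower than DMSO, with log2 fold changes of -0.21 (interval -0.31 to -0.11) at 50 nM and -0.24 (-0.34 to -0.14) at 100 nM, the latter 0.848 of the DMSO level. HOXA10, which acts with HOXA9 in progenitor cells, had 768, 619 and 662 counts. Its log2 fold changes were -0.28 (-0.43 to -0.12) and -0.27 (-0.42 to -0.12). The step from 50 to 100 nM was -0.03 (-0.13 to 0.07) for HOXA9 and 0.01 (-0.15 to 0.17) for HOXA10, so that the higher dose gave no further fall detectable at this depth. Of the 9979 genes that averaged 100 counts or more, 16.3% had a lower log2 fold change than HOXA9 at 100 nM and 13.1% a lower one than HOXA10.

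The low HOXA members could be judged less well. HOXA7 had 107, 87 and 85 counts, with log2 fold changes of -0.26 (-0.69 to 0.16) and -0.39 (-0.82 to 0.04). HOXA5 had 28, 15 and 24 counts, with -0.84 (-1.88 to 0.09) and -0.28 (-1.13 to 0.56). All 4 of these intervals include 0. HOXA6 had 6, 5 and 7 counts, too few for a comparison. Exons of HOXA-AS3 on the other strand cover 74.7% of the counted exon length of HOXA7 and 24.2% of that of HOXA6. HOXA-AS3 itself had 2, 1 and 2 counts. The strand setting of the counting is not given in the sources used here. Reads of the shared parts may not be told apart or may have been left out, so that the values of these genes are uncertain. Of 63 genes wholly covered by exons on the other strand, 15 had a count and 0 had 300 counts over the 3 libraries.

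Summed over the 5 HOXA genes of the list, 2726 reads were counted with DMSO, 2259 at 50 nM and 2381 at 100 nM. The sum had log2 fold changes of -0.24 (-0.32 to -0.16) and -0.25 (-0.33 to -0.17), and without HOXA9 they were -0.29 (-0.43 to -0.15) and -0.28 (-0.42 to -0.14). The HOXA gene outside the list with the most reads was HOXA11, which had 363, 315 and 246 counts. Its log2 fold change was -0.17 (-0.39 to 0.05) at 50 nM and -0.62 (-0.86 to -0.38) at 100 nM, and the step from 50 to 100 nM was -0.45 (-0.69 to -0.20), with 0.3% of the 9979 genes lower. HOXA13 had -0.60 (-1.27 to 0.04) and -0.87 (-1.57 to -0.20). The sum of HOXA9, HOXA10, HOXA11 and HOXA13 had -0.23 (-0.31 to -0.15) and -0.30 (-0.37 to -0.22).

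HOXA9 and HOXA10 kept their proportion to within counting error. The ratio of HOXA9 to HOXA10 per length was 3.66 (interval 3.36 to 3.99) with DMSO, 3.83 (3.49 to 4.21) at 50 nM and 3.75 (3.42 to 4.11) at 100 nM, and these intervals overlap. HOXA9 held 63.8%, 64.8% and 65.7% of the summed HOXA level, and HOXA11 held 9.88%, 10.3% and 7.81%.

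**Figure D3:**
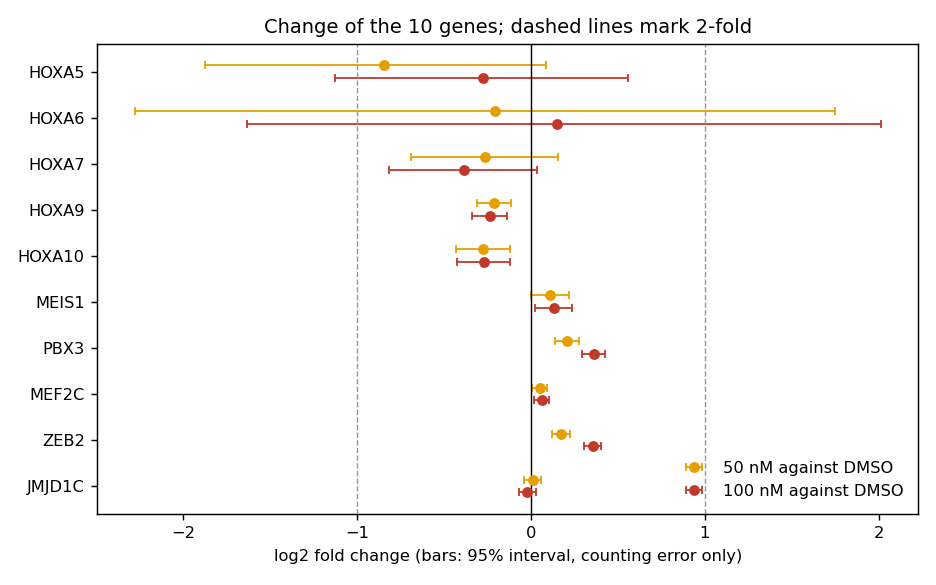
Log2 fold change of the 10 genes at 50 nM and at 100 nM against DMSO, with bars for the 95% interval, which covers counting error only, and dashed lines at 2-fold. HOXA9 and HOXA10 lie below 0 and PBX3 and ZEB2 above 0 at both doses, while the bars of HOXA5, HOXA6 and HOXA7 cross 0 at both.

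Among the TALE partners, PBX3 and MEIS1 were higher after pyrvinium. PBX3 (Entrez 5090, chromosome 9 of hg19 from 128509617 to 128729656, plus strand) had 3317, 3737 and 4429 counts, more at each dose. Its log2 fold change was 0.21 (0.14 to 0.27) at 50 nM and 0.36 (0.29 to 0.42) at 100 nM, 1.28 times the DMSO level, and the step from 50 to 100 nM was 0.15 (0.09 to 0.22). MEIS1 (Entrez 4211, chromosome 2 from 66662532 to 66799891, plus strand) had 1346, 1419 and 1533 counts. Its log2 fold changes were small, 0.11 (0.002 to 0.22) and 0.13 (0.02 to 0.24). With total counts as library sizes the interval at 50 nM included 0 (-0.002 to 0.22). At 100 nM 72.4% of the 9979 genes lay below MEIS1, against 91.0% for PBX3.

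HOXA9 and its partners thus went opposite ways between these libraries. The ratio of PBX3 to HOXA9 per length was 1.21 (1.14 to 1.28) with DMSO, 1.62 (1.52 to 1.72) at 50 nM and 1.83 (1.73 to 1.94) at 100 nM, with no overlap of the intervals. The ratio of HOXA9 to MEIS1 was 2.09 (1.94 to 2.24) with DMSO and lower at 50 nM, 1.67 (1.55 to 1.80), and at 100 nM, 1.62 (1.51 to 1.74).

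The other TALE genes went either way. MEIS2, a close relative of MEIS1, had 705, 516 and 494 counts and log2 fold changes of -0.42 (-0.58 to -0.25) and -0.57 (-0.74 to -0.40). The ratio of MEIS1 to MEIS2 per length was 2.83 (2.58 to 3.11) with DMSO, 4.08 (3.68 to 4.52) at 50 nM and 4.60 (4.15 to 5.10) at 100 nM. Of 9 further TALE genes, 5 were tested. At 100 nM 2 had an interval below 0, MEIS2 and TGIF2 (-0.10, interval -0.20 to -0.01), and 1 above, TGIF1 (0.26, interval 0.10 to 0.42), where 25.3% of all genes lay below and 24.0% above. TGIF1 and TGIF2 encode repressors of the same homeodomain class. PBX2 had 127, 114 and 115 counts, far fewer than PBX3 in each library.

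ZEB2 and MEF2C differed in how far they moved. ZEB2 (Entrez 9839, chromosome 2 from 145141942 to 145277958, minus strand) had 6134, 6760 and 8161 counts. Its log2 fold change was 0.17 (0.12 to 0.23) at 50 nM and 0.35 (0.31 to 0.40) at 100 nM, with a step of 0.18 (0.13 to 0.23) between the doses. Its paralog ZEB1 had 1, 0 and 1 counts. MEF2C (Entrez 4208, chromosome 5 from 88014058 to 88199922, minus strand) had 8913, 9014 and 9672 counts and log2 fold changes of 0.05 (0.01 to 0.09) and 0.06 (0.02 to 0.10), so that its intervals excluded 0 only because of its many reads. MEF2D, the most expressed relative per length at 144.4 TPM, had 0.06 (0.02 to 0.10) and 0.16 (0.12 to 0.20).

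JMJD1C (Entrez 221037, chromosome 10 from 64926985 to 65225722, minus strand) was level across the libraries, with 7185, 7065 and 7371 counts. Its log2 fold changes were 0.01 (-0.04 to 0.06) and -0.02 (-0.07 to 0.03), and the step from 50 to 100 nM was -0.03 (-0.08 to 0.02), so that all 3 intervals included 0. JMJD1C-AS1, on the other strand, overlaps 5.0% of its exon length and had 192, 230 and 296 counts. Of its relatives, KDM3A had 0.10 (0.02 to 0.17) and KDM3B -0.04 (-0.10 to 0.02) at 100 nM. JMJD6, which shares only the JmjC fold, had 602, 410 and 416 counts and a log2 fold change of -0.59 (-0.77 to -0.41). Over the 5 tested of 8 relatives of MEF2C, ZEB2 and JMJD1C, 2 had an interval above 0 at 100 nM and 1 below, beside 24.0% and 25.3% of all genes.

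Set against each other, the 100 nM and 50 nM libraries differed little in the list. PBX3 and ZEB2, 2 of the 9 genes, had an interval above 0, where 12.5% of all genes did, 0 had one below 0, where 14.3% did, and 0 reached 2-fold, where 1.96% did. Only 6 of the 9979 genes averaging 100 counts or more reached 2-fold here. In the order DMSO, 50 nM, 100 nM the scaled level was higher at each step in 4 of the 9 genes, MEIS1, PBX3, MEF2C and ZEB2, and in 28.4% of all genes. It was lower at each step in 2, HOXA7 and HOXA9, and in 28.0% of all genes. Among the 9979 genes averaging 100 counts or more these shares were 28.4% and 31.5%. This order uses signs alone. The second step was 0.02 (-0.085 to 0.125) for MEIS1, 0.01 (-0.031 to 0.052) for MEF2C and -0.125 (-0.573 to 0.323) for HOXA7. These intervals include 0, as did that of HOXA9.

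**Figure D4:**
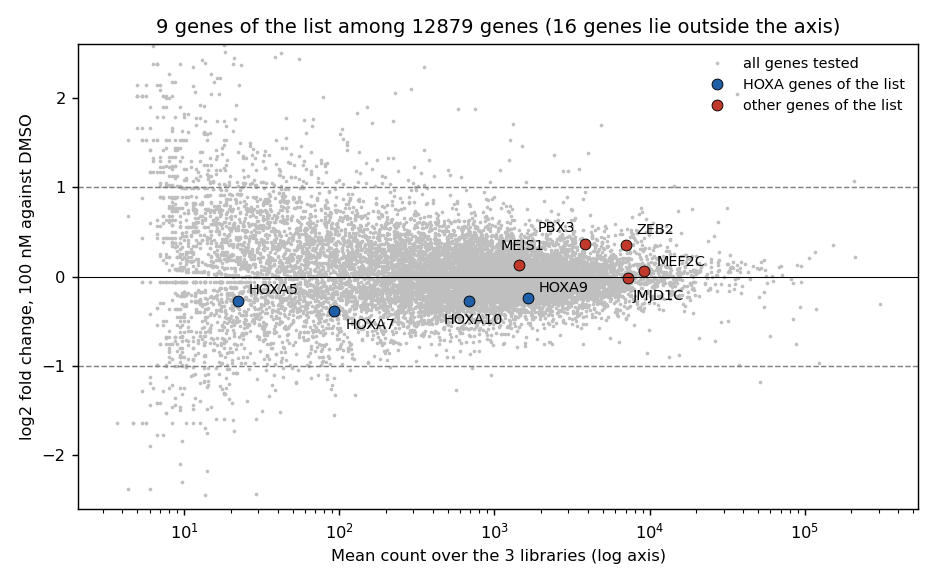
Log2 fold change at 100 nM against DMSO by mean count over the 3 libraries (log axis) for the 12879 genes tested, in grey, with the 9 genes of the list that were tested in blue (HOXA) and red, and dashed lines at 2-fold. The 4 HOXA genes lie below 0, between -0.39 and -0.24, and the other 5 between -0.02 and 0.36, and 16 grey points lie outside the axis.

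The genes that encode the fusion partners and their co-factors differed in both directions, all by less than 2-fold. KMT2A had 1240, 1096 and 1162 counts and log2 fold changes of -0.14 (-0.26 to -0.03) and -0.15 (-0.27 to -0.03). MLLT3, the fusion partner, had 241, 193 and 226 counts, with -0.28 (-0.57 to -0.01) and -0.15 (-0.42 to 0.12). MEN1, which encodes menin, had -0.01 (-0.11 to 0.09) and -0.13 (-0.23 to -0.03), and PSIP1, which encodes LEDGF, -0.00 (-0.09 to 0.09) and -0.01 (-0.09 to 0.08). DOT1L, the histone methyltransferase recruited by the fusion, had 5308, 4940 and 6251 counts, with -0.07 (-0.13 to -0.01) at 50 nM and, in the other direction, 0.18 (0.13 to 0.23) at 100 nM.

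Of 29 such genes, all tested, 9 had an interval above 0 at 100 nM and 4 below, with a median of 0.03, beside 24.0% and 25.3% of all genes. Among those with a mean of 100 counts or more, an interval above 0 and the same sign at 50 nM, the largest differences at 100 nM were those of ASH2L (0.545, interval 0.485 to 0.605), a subunit of the KMT2 complexes, EAF1 (0.28, interval 0.16 to 0.40), an elongation factor subunit, and HCFC1 (0.21, interval 0.15 to 0.28). WDR5, another subunit of these complexes, had -0.17 (-0.24 to -0.09), and EAF2 -0.16 (-0.31 to -0.003). MLLT1, the most expressed partner gene of the KMT2A fusions in this list at 73.7 TPM, had -0.00 (-0.07 to 0.06). None of the 29 reached 2-fold in either comparison with DMSO, where 3.84% of all genes did at 100 nM and 2.73% at 50 nM. Among the 9979 genes averaging 100 counts or more, only 69 and 20 did. The absence of such changes is thus not particular to these 29 genes.

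Other known KMT2A-fusion targets were higher in the pyrvinium libraries more often than lower. Of 26 such genes, 21 were tested, and 16 of the 21 had an interval above 0 at 100 nM, where 24.0% of all genes did, and 1 below, RUNX1 (-0.08, interval -0.14 to -0.02), where 25.3% did. At 50 nM the counts were 14 and 1, beside 18.6% and 18.5% of all genes. Intervals leave 0 more readily in genes with many reads, as most of these targets have. Among the 9979 genes averaging 100 counts or more, 2706 lay above 0 and 3054 below at 100 nM. At 50 nM these were 2166 and 2212. Shares matched to the depth of the targets were not computed, and the list was chosen with earlier results of these data known. Whether these targets differ from other genes was therefore not tested. The median log2 fold change was 0.25 at 100 nM and 0.15 at 50 nM, against -0.002 and 0.001 over all genes tested. FLT3, the receptor kinase that carries the duplication, had 6304, 9012 and 11181 counts and log2 fold changes of 0.55 (0.50 to 0.60) and 0.77 (0.72 to 0.81), above 98.7% of the 9979 genes at both doses. SENP6, a SUMO protease, had 7320, 9287 and 11885 counts, with 0.38 (0.33 to 0.42) and 0.64 (0.60 to 0.68). MYC had 21175, 28215 and 33596, with 0.45 (0.42 to 0.47) and 0.61 (0.58 to 0.63).

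BMI1, a Polycomb gene of stem cell self-renewal, had 0.24 (0.20 to 0.28) and 0.40 (0.37 to 0.44). LAMP5, a marker of KMT2A-rearranged leukemia, stood at 454 TPM with DMSO and changed by 0.05 (0.01 to 0.09) at each dose. IKZF2, named after its values were seen, was the 1 gene of this list past 2-fold at 100 nM, but from 8, 17 and 23 counts (1.41, interval 0.26 to 2.84). The genes HMGA2, SIX4, PROM1 and EYA1 had no count in any library.

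Genes of the myeloid maturation list, which holds granule, surface and lineage factor genes of different stages, differed in both directions. Of 21 genes, 19 were tested, and at 100 nM 5 had an interval above 0 and 4 below, shares near the 24.0% and 25.3% of all genes, with a median of -0.03. The granule protease CTSG had 848, 1193 and 1522 counts and log2 fold changes of 0.53 (0.40 to 0.66) and 0.79 (0.67 to 0.91). MPO, the granule peroxidase, had 0.37 (0.14 to 0.60) and 0.57 (0.36 to 0.79), and AZU1 0.14 (0.07 to 0.22) and 0.29 (0.21 to 0.36). SPI1, the master factor of the myeloid lineage, had 2981, 2667 and 2491 counts, with -0.13 (-0.20 to -0.05) and -0.32 (-0.39 to -0.24), CEBPA had -0.15 (-0.20 to -0.10) and -0.12 (-0.17 to -0.08), and PRTN3 -0.02 (-0.14 to 0.11) and -0.14 (-0.26 to -0.01). The most expressed genes of this list, IRF8 at 497 and LYZ at 421 TPM with DMSO, had 0.04 (0.01 to 0.07) and -0.03 (-0.07 to 0.02) at 100 nM. Exons on the other strand cover 53.6% of the counted length of LYZ, so that its values are uncertain, as for HOXA7. Of the monocyte surface genes, ITGAM (58, 57 and 62 counts) and CD14 (2, 2 and 1 counts) were low in every library. Others of the list had more reads, FCGR1A with 476, 516 and 582 counts, CD86 with 137, 116 and 152, and CSF1R with 119, 116 and 127.

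As no spread between replicates can be had here, edgeR's exact test was also run with a variation between replicates set by hand. It covered the 12879 genes tested. Few of all genes reached the threshold below in any comparison, so that 0 of the 9 genes says nothing particular to the list. At a coefficient of 0.1, 0 of the 9 genes reached an adjusted p of 0.05 in any of the 3 comparisons, and 244 of all genes did at 100 nM against DMSO. At 0.2 these counts were 0 and 12.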

How the data were processed

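The 3 libraries were grouped by their titles, which give the 100 nM dose. The authors aligned paired reads of strand-specific mRNA libraries to hg19 (GRCh37) with Rsubread, per the study's methods and the submitters' processing notes, and deposited whole-number counts per Entrez gene, without normalization. Versions and the strand setting are not given in the sources used here. The authors' table of EBSeq comparisons (posterior probabilities, fold changes and condition means) was not used.

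Of 25702 identifiers, 23696 matched a RefSeq symbol. HOXA-AS1, HOXA10-AS and the HOXA10-HOXA9 readthrough matched none and are not analysed here. Of 198911 gaps between counted exons, 96.9% began with GT and ended with AG in GRCh37.

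Libraries were scaled by TMM (edgeR 4.0.16, R 4.3.3), and a gene was tested if any library held 10 or more of its counts. Each count was raised by 0.5 for fold changes. Intervals are 95% exact Clopper-Pearson intervals of the count ratio (scipy 1.17.1) or, for levels, exact Poisson intervals. Intervals and floors cover counting error only, since reads are not independent molecules. The intervals were tried on simulated Poisson counts drawn with the same scaling. These held no variation between replicates, so that the trial covers counting error only. Tried besides were size factors of DESeq2 1.42.0, total counts, TMM without mitochondrial genes, minimums of 1 and 50 counts, 5 counts added, a 1.5-fold threshold, 99% intervals, levels without length, and edgeR's exact test with Benjamini-Hochberg adjustment over all genes tested.

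The 10 genes and all lists were chosen with earlier results of these data known. The text names the 10, KMT2A, MLLT3, MEN1, PSIP1, DOT1L, the other HOXA genes, genes whose exons overlap one of the 10, and in each list up to 3 genes by level and up to 3 per direction by change at 100 nM, with a mean of at least 100 counts, an interval off 0 and the same sign at 50 nM. HOXC6, HOXC8, SIX4, HMGA2, PROM1, EYA1, ZEB1, PBX2, ITGAM, CD14, FCGR1A, CD86 and CSF1R were named after their values were seen. Some further genes of these lists are not reported here.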

Additional observations from a re-analysis of the deposited data

How the results depend on the processing

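The 109 results for the list, its genes and the other gene lists gave 616 values under the alternatives, of which 7 moved. Counts are taken as moved past 1.5 times, and values past their counting interval. No log2 fold change of a gene of the list changed sign under the alternatives (0 values), but 6 medians of other lists did, all with another count minimum. With a threshold of 1.5-fold in place of 2-fold, 1 gene of the list (HOXA5, from 28 and 15 counts) was called at 50 nM in place of 0. With 99% intervals, 2 genes in place of 4 had an interval above 0 at 50 nM, and MEIS1 and MEF2C were the genes lost; at 100 nM 3 in place of 4 did, without MEIS1. With total counts as library sizes, 3 genes in place of 4 had an interval above 0 at 50 nM, again without MEIS1, and 2 other KMT2A-fusion targets in place of 1 had an interval below 0 at 50 nM. Without division by length, the place of JMJD1C in the DMSO library became 2, that of ZEB2 3, that of PBX3 4 and that of HOXA9 5. The scalings differed by at most 0.005 on the log2 scale. A minimum of 50 counts left no value for HOXA5. It moved the medians of myeloid maturation from -0.03 to 0.03 at 100 nM against DMSO and from -0.05 to 0.02 against 50 nM, that of the non-coding HOXA genes from 0.12 to -0.02 (-0.06 with 1 count), and that of the other HOXA genes from 0.27 to -0.36 at 100 nM against 50 nM. With a minimum of 1 count the median of the MEF2C, ZEB2 and JMJD1C relatives went from 0.03 to -0.04. The other HOXA genes had medians of -0.17 at 50 nM (-0.09 and -0.38 with minimums of 1 and 50) and -0.54 at 100 nM (-0.15 and -0.74), which rest on few genes with low counts. No paired analysis was possible because each condition has 1 library, and no library could be left out for the same reason. Depth limits HOXA2 to HOXA6, with at most 28 counts each.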
